A study of Oncorhynchus mykiss with 6 samples.

Results

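miR-122, miR-192, miR-194, miR-215 and miR-375 are microRNAs known best from liver, gut and pancreas, and their levels are described here in the dorsal skin of rainbow trout (Oncorhynchus mykiss). The entries were taken by name: those whose family number, without the suffix x, y or z, is one of these 5. This gave 11 of the 1939 mature miRNAs in the deposited table, and 9 of the 11 passed the filter for testing, a mean of at least 1 TPM (the authors' counts scaled to library size) over all libraries. Small RNA was sequenced in 6 libraries at 45 days of age, 3 from the yellow mutant with yellow skin (YR) and 3 from the wild type with black skin (WR). The labels name neither the mutated gene nor how many fish a library holds, so the p-values measure the spread between these libraries, which may be technical. The entries were chosen by name and no measured value enters the rule, but the set of 5 families was selected on earlier results of these data, the fold change of miR-122-x in YR among them. The comparison of YR with WR is therefore a description and gives no independent support.

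A miRNA guides Argonaute proteins to messenger RNAs that pair with its seed, bases 2 to 8, and lowers their output. miR-122 dominates the miRNAs of vertebrate hepatocytes, where it acts on cholesterol and lipid metabolism. In mammals miR-192 and miR-194 are transcribed together in the epithelia of intestine, kidney and liver, and miR-215 is a close copy of miR-192. miR-375 limits insulin secretion in pancreatic islets of mammals and also marks enteroendocrine cells and the Merkel cells of mammalian skin. In the table the suffix x is read here as the 5p arm of a hairpin and y as the 3p arm, while z has no stated arm.

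The deposited sequences of the 6 entries that the results turn on are given 5′ to 3′, with the seed in capitals, because they show which names can be told apart by their reads.
miR-122-x: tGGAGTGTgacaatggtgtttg
miR-194-x: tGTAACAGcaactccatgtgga
miR-192-x: aTGACCTAtgaattgacagcca
miR-215-x: aTGACCTAtgaattgacagcct
miR-215-z: aTGACCTAtgaattgacagccat
miR-375-y: tTTGTTCGttcggctcgcgtta
The seeds of miR-122-x and miR-194-x were shared with 0 other entries of the table. miR-192-x, miR-215-x and miR-215-z carried 1 seed. Counted from the 5′ end, miR-215-x differed from miR-192-x by the substitution A22T, at its last base, and miR-215-z was miR-192-x with 1 more base. In the same way miR-375-z was miR-375-y with 2 more bases, and miR-192-z differed from miR-192-y by A11C. The sources used here do not state how reads were shared among such near-identical entries, so the split between miR-192 and miR-215 is uncertain. All 11 sequences were distinct. 4 of the 11 began with T, against 42.6% of the 709 entries with known names.

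miR-375-y was the most abundant of the group in this skin and ranked 45 among all entries by mean TPM. It was followed by miR-192-x at rank 90, miR-194-x at 200 and miR-122-x at 231. miR-215-x ranked 376, miR-375-x 443, miR-192-y 566, miR-215-z 601 and miR-192-z 710, and the untested miR-375-z and miR-194-y 1014 and 1226. All are mature RNAs of 22 to 24 bases, so TPM needs no correction for length, but adapter ligation, which was not measured, can favour one sequence over another. Of neighbours in this order, miR-194-x and miR-122-x overlapped in their TPM in WR and not in YR, where miR-122-x overlapped miR-215-x instead. Lower neighbours overlapped too, miR-215-z with miR-192-y and miR-375-z with miR-194-y in both groups. miR-192-z overlapped miR-375-z in YR and miR-215-z in WR, and miR-215-x overlapped miR-375-x in WR. The order of the scarce entries is therefore not resolved. The 11 entries together held 0.175%, 0.171% and 0.146% of the counts in YR replicates 1, 2 and 3, against 0.237%, 0.211% and 0.188% in the WR replicates. miR-375-y alone made 85.7% to 87.0% of their reads in YR and 76.1% to 83.7% in WR. Library totals ran from 8245698 to 10336991 counts, and counting intervals below cover counting error only.

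**Figure D1:**
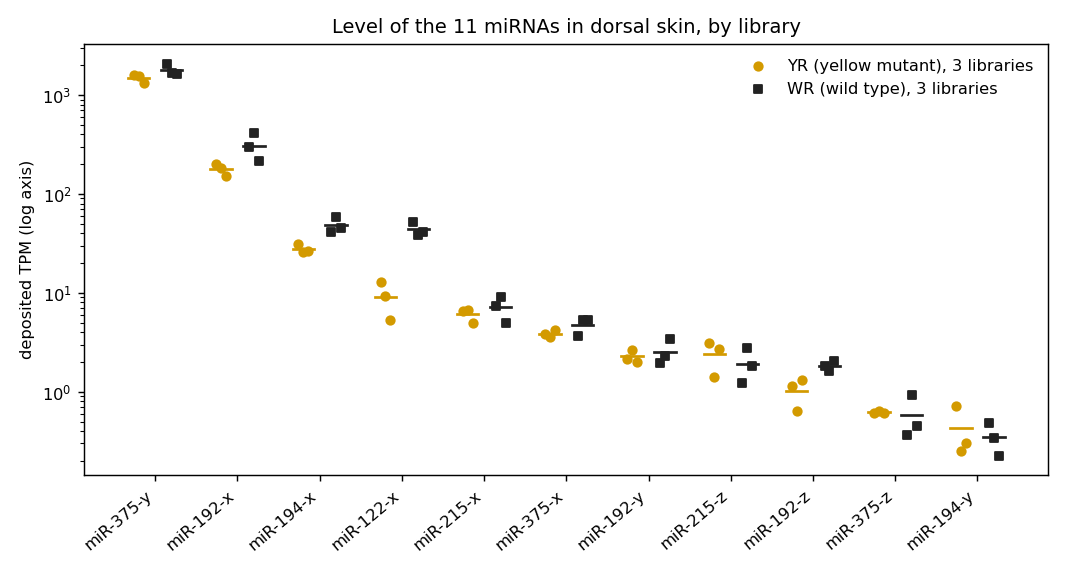
Deposited TPM (log axis) of the 11 entries in each library, YR circles left of WR squares, with a line at the group mean. The entries run from miR-375-y, at 1317 to 2082 TPM, to miR-194-y, below 1 TPM, and the widest gap between groups is that of miR-122-x.

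1 library stood apart from the rest. WR replicate 1 held 23313 reads of miR-127-y, an entry chosen after its values were seen, against 531, 391 and 420 in YR and 602 and 326 in the other WR libraries. The difference was not limited to this entry. Across entries, WR replicate 1 differed from WR replicates 2 and 3 with a chi-square per degree of freedom of 405 and 527. WR replicates 2 and 3 gave 68.3, and the YR pairs 65.2 to 237. Several values that moved without WR replicate 1 are given with and without it. The labelled tissue carried its own markers: miR-203, miR-205 and miR-200, miRNAs of skin epithelium, summed to 63524 to 75080 TPM in YR and 78696 to 84245 TPM in WR.

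miR-122-x, the liver miRNA, had the largest fold decrease of this group in yellow skin. It had 126, 73 and 53 reads in YR replicates 1, 2 and 3, against 426, 338 and 366 in the WR replicates. This is 12.9, 9.27 and 5.33 TPM in YR and 51.8, 38.8 and 41.4 TPM in WR. Every YR library lay below every WR library, and the counting intervals of the 2 groups were far apart: the highest YR library allows 10.8 to 15.4 TPM (95% Poisson interval) and the lowest WR library 34.7 to 43.1. The group means were 9.18 ± 3.81 TPM in YR and 44.0 ± 6.90 TPM in WR (SD, n = 3 each). Within groups the libraries still differed by more than counting noise, with a chi-square per degree of freedom of 15.2 in YR and 8.74 in WR.

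After TMM scaling, which sets libraries to a common level over most miRNAs, miR-122-x was 4.14-fold lower in YR (log2 fold change -2.05, SE 0.295; edgeR quasi-likelihood test, adjusted p = 0.0201 over 834 entries). Of all tested entries 5.28% passed this threshold of 0.05, and 3.12% of all tested entries passed and were lower in YR. Of the 9 tested entries of this group 1 passed, lower. Of the 44 entries, 18 (2.16% of those tested) were higher and 26 lower, and with library totals in place of TMM 1 was higher and 29 lower. At an unadjusted p under 0.05 stood 3 of the 9, all lower, against 21.7% of all tested entries (9.83% lower). 81 of the 834 entries had a lower log2 fold change than miR-122-x, 18 of them with a known name and a mean of at least 10 TPM. Those 18 had SE of 1.162 to 1.616, against 0.295 for miR-122-x, and missed the threshold (edgeR adjusted p 0.201 to 0.291). Among them was miR-127-y (log2 fold change -3.96, SE 1.616), whose excess in WR lay in WR replicate 1. A fit without that library was run, but how far the others rest on it was not examined entry by entry. In the authors' deposited table the log2 fold change of miR-122-x is -2.26 with an adjusted p of 0.00292, from a test that is not described there. With library totals in place of TMM the edgeR fit gave -2.258. The authors' log2 fold changes of miR-192-x and miR-194-x are -0.793 and -0.791, with adjusted p of 0.674 and 0.682 from that undescribed test. The edgeR call of miR-122-x was lost when any 1 of 5 libraries was left out. Without WR replicate 1 the edgeR adjusted p was 0.00507, but it missed the threshold without YR replicate 1 (0.0604), 2 (0.0858) or 3 (0.0515) and without WR replicate 2 (0.0923) or 3 (0.0649), at log2 fold changes of -2.29 to -1.82. In those 5 fits 0.24%, 2.16%, 1.08%, 0.12% and 0.6% of all entries passed. It was also lost when the 428 tested entries with known names were fitted alone, where 0 passed (edgeR adjusted p = 0.0752, 52 entries at an unadjusted p under 0.05). With a replicate block, which matches libraries by number, the call was lost too (log2 fold change -2.095, edgeR adjusted p = 0.0839). In that fit 0.24% of entries passed. The call was kept with median-of-ratios scaling, where 5.16% of entries passed, library totals (3.6%), no filter (1.91%), a mean of at least 10 TPM (4.83%) and DESeq2 (9.73%). It was kept, too, with limma at a pseudocount of 1 (4.92%) or 0.1 (4.2%) and with 1 entry per distinct sequence (3.04%).

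**Figure D2:**
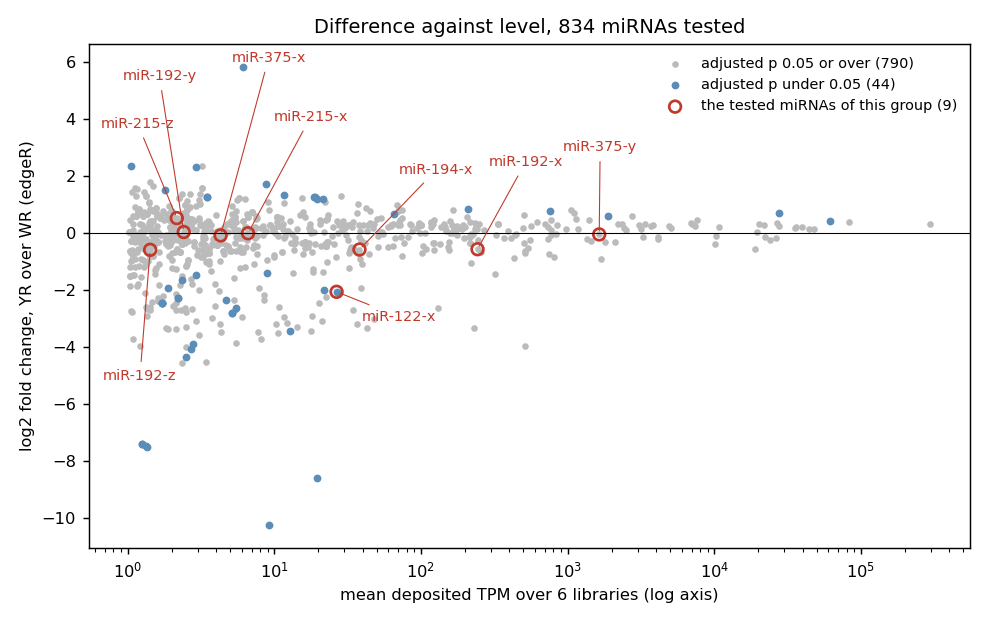
Log2 fold change of YR over WR by edgeR against mean TPM (log axis) for the 834 tested entries, with the 44 past the threshold in blue and the 9 of this group ringed. miR-122-x lies at -2.05, and the other 8 lie between -0.58 and 0.54.

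Skin sampled in bulk cannot tell fewer cells of a type from less RNA per cell. Other miRNAs with a role in liver gave the following values beside that of miR-122-x. miR-885-x, a human liver miRNA, had 2, 0 and 1 reads in YR and 3, 0 and 0 in WR. miR-148 and miR-22, abundant in liver and in many other tissues, had 6 tested entries with positive log2 fold changes (median 0.26, against -0.03 over all tested entries). None of the 6 passed in edgeR (3 had an unadjusted p below 0.05), DESeq2 or limma. Without WR replicate 1 this median was 0.01. Among them, miR-22-y stood at 22069 ± 944 TPM in YR and 21505 ± 3948 TPM in WR, and miR-148-y at 2403 ± 76.6 TPM in YR and 2598 ± 357 TPM in WR (SD, n = 3 each). The summed level of this list was 24681 to 26693 TPM in YR and 22250 to 29401 TPM in WR, and its part in the miR-122-x result was not tested.

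miRNAs of blood were read in every library, and 0 of their tested entries passed the threshold. For red blood cells, miR-451-x stood at 148 ± 42.5 TPM in YR and 168 ± 33.8 TPM in WR, and miR-144-y at 149 ± 40.1 TPM in YR and 179 ± 102 TPM in WR (SD, n = 3 each). The red blood cell list summed to 228.9 to 404.3 TPM in YR and 237.3 to 489.4 TPM in WR, with a median log2 fold change of 0.01 over 5 tested entries (0.30 without WR replicate 1). The edgeR fit called 0 of the 5 (0 with unadjusted p below 0.05), as did DESeq2 and limma. For white blood cells, miR-142-x stood at 1142 ± 51.5 TPM in YR and 1218 ± 154 TPM in WR, and miR-150-x, of lymphocytes, at 135 ± 13.6 TPM in YR and 113 ± 4.09 TPM in WR. That list summed to 1368 to 1494 TPM in YR and 1322 to 1610 TPM in WR, with a median of 0.15 over 5 tested entries (-0.01 without WR replicate 1). The edgeR fit called 0 of the 5 (2 with unadjusted p below 0.05), as did DESeq2 and limma. In TPM miR-150-x and miR-223-x were higher in YR with no overlap, against 8.63% of all tested entries. The red blood cell entry miR-144-x was lower with no overlap, against 19.7% of all tested entries. The other tested entries of both blood lists overlapped.

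miR-192-x, the epithelial miRNA of gut and kidney, had 1953, 1432 and 1504 reads in YR and 2483, 3570 and 1888 in WR. In TPM this is 201, 182 and 151 in YR against 302, 409 and 214 in WR. The groups did not overlap, although YR replicate 1 and WR replicate 3 lay close, and WR replicate 2 was the highest by a wide margin. The means were 178 ± 24.9 TPM in YR and 308 ± 98.1 TPM in WR (SD, n = 3 each), and the log2 fold change after TMM scaling was -0.55 (SE 0.225; edgeR adjusted p = 0.222, unadjusted p = 0.0474). It missed the threshold in each of 17 alternatives, with adjusted p from 0.0525 to 0.429. The 0.0525 came from edgeR without WR replicate 1, at a log2 fold change of -0.776 (SE 0.217).

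miR-194-x, its partner, had 306, 205 and 261 reads in YR and 336, 514 and 398 in WR. In TPM this is 31.4, 26.0 and 26.3 in YR against 40.9, 58.9 and 45.0 in WR, again with no overlap. The means were 27.9 ± 3.06 TPM in YR and 48.3 ± 9.47 TPM in WR (SD, n = 3 each). Its log2 fold change was -0.57 (SE 0.218; edgeR adjusted p = 0.201). Without WR replicate 1 it was -0.87 (SE 0.170; edgeR adjusted p = 0.0149), in a fit in which 14.1% of all entries passed. In that same fit 5 of the 9 tested skin epithelium entries fell, among them miR-203-y (log2 fold change -0.67, edgeR adjusted p = 0.00469) and miR-200-y (-0.45, 0.0159). With all 6 libraries 0 of those 9 passed in edgeR (0 with unadjusted p below 0.05), DESeq2 (1 such) or limma (5), and their median log2 fold change was -0.24, against -0.45 without WR replicate 1. With library totals alone 5 of the 9 had an unadjusted p below 0.05 and 0 passed. In TPM 5 of the 9 (miR-200-x, miR-200-y, miR-200-z, miR-203-x and miR-203-y) were lower in YR with no overlap, against 19.7% of all tested entries. After TMM scaling only miR-200-x of these stayed lower with no overlap, against 11.2% of all tested entries. The groups of miR-200-y, miR-200-z, miR-203-x and miR-203-y then overlapped, while those of miR-194-x did not. In relation to the reads of miR-375-y in the same library, the groups of miR-194-x did overlap. The part of the epithelium in the levels of miR-194-x was not tested.

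**Figure D3:**
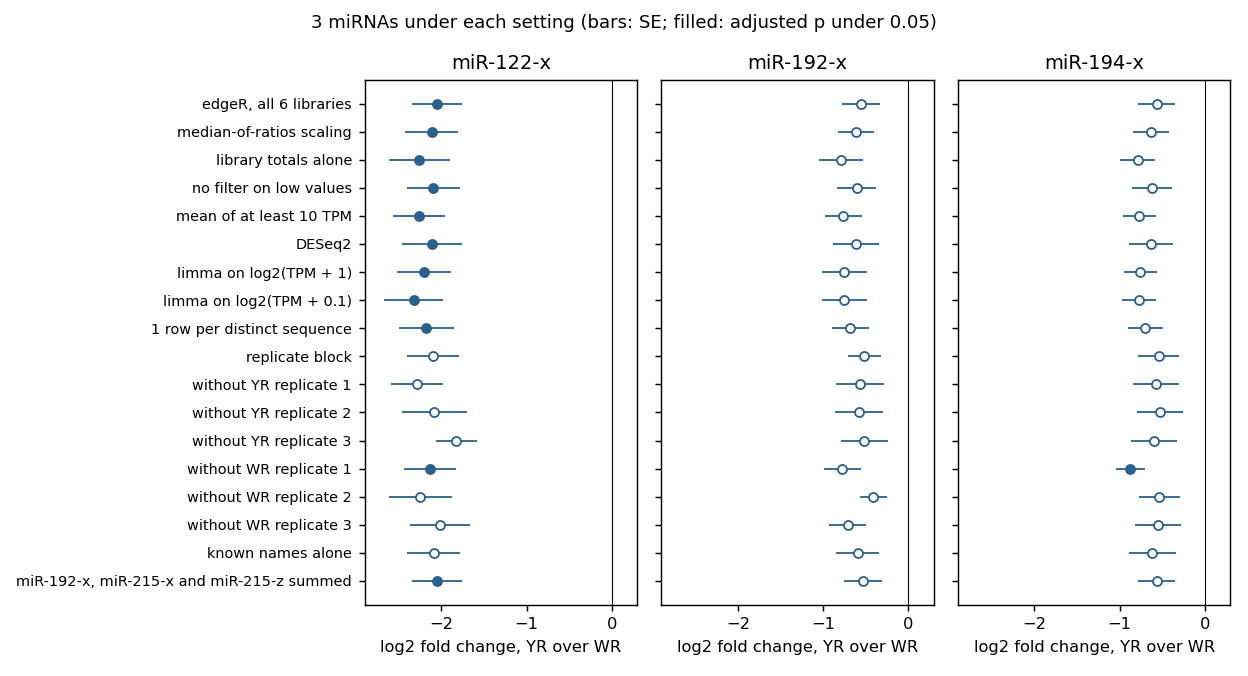
Log2 fold change of YR over WR with its SE for miR-122-x, miR-192-x and miR-194-x in the fit of all 6 libraries (top) and 17 alternatives, filled where the adjusted p was under 0.05. All values lie below 0; miR-122-x runs from -2.33 to -1.82, miR-192-x from -0.79 to -0.41 and miR-194-x from -0.87 to -0.53.

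A ratio taken within a library does not depend on how libraries are scaled. miR-192-x had 6.38, 6.99 and 5.76 reads per read of miR-194-x in YR, against 7.39, 6.95 and 4.74 in WR. The ratio averaged 6.38 ± 0.611 in YR and 6.36 ± 1.42 in WR (SD, n = 3 each), and the groups overlapped. The reads of miR-122-x were set against both other abundant miRNAs in the same way. It had 6.45%, 5.10% and 3.52% of the reads of miR-192-x in YR, against 17.2%, 9.47% and 19.4% in WR. Against miR-375-y it had 0.819%, 0.594% and 0.405% in YR and 2.49%, 2.30% and 2.53% in WR. In both ratios the groups did not overlap, and the WR libraries were most alike in the ratio to miR-375-y, at 2.44% ± 0.120, against 0.606% ± 0.207 in YR (SD, n = 3 each). Against miR-375-y, miR-194-x had 1.99%, 1.67% and 1.99% in YR and 1.96%, 3.5% and 2.75% in WR, and the groups overlapped. miR-192-x had 12.7%, 11.7% and 11.5% of the reads of miR-375-y in YR and 14.5%, 24.3% and 13% in WR, with no overlap.

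miR-215-x, which has the seed of miR-192-x, had 64, 53 and 49 reads in YR and 61, 79 and 44 in WR. In TPM it averaged 6.08 ± 0.997 in YR and 7.15 ± 2.05 in WR (SD, n = 3 each), and the groups overlapped. Its share of the joint reads of miR-192-x and miR-215-x was 3.17%, 3.57% and 3.16% in YR, against 2.40%, 2.16% and 2.28% in WR. The groups did not overlap in this share, but the counts are small: the exact binomial 95% intervals ran from 2.45% to 4.03% in YR replicate 1 and from 1.84% to 3.07% in WR replicate 1. miR-215-z had 30, 11 and 27 reads in YR and 10, 24 and 16 in WR, with overlapping groups. Neither passed the test (log2 fold changes 0.01 and 0.54; edgeR adjusted p = 0.987 and 0.486). Without single libraries that of miR-215-z ran from 0.12 to 0.80, the lowest without WR replicate 1. That of miR-215-x was at 0 within its SE of 0.269 and took either sign under other settings. With the 3 entries summed to 1, an alternative added after seeing the data, the log2 fold change was -0.53 (edgeR adjusted p = 0.230; 5.29% of entries passed), and miR-192-x made 95.2% to 95.7% of these reads in YR and 96.9% to 97.2% in WR.

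**Figure D4:**
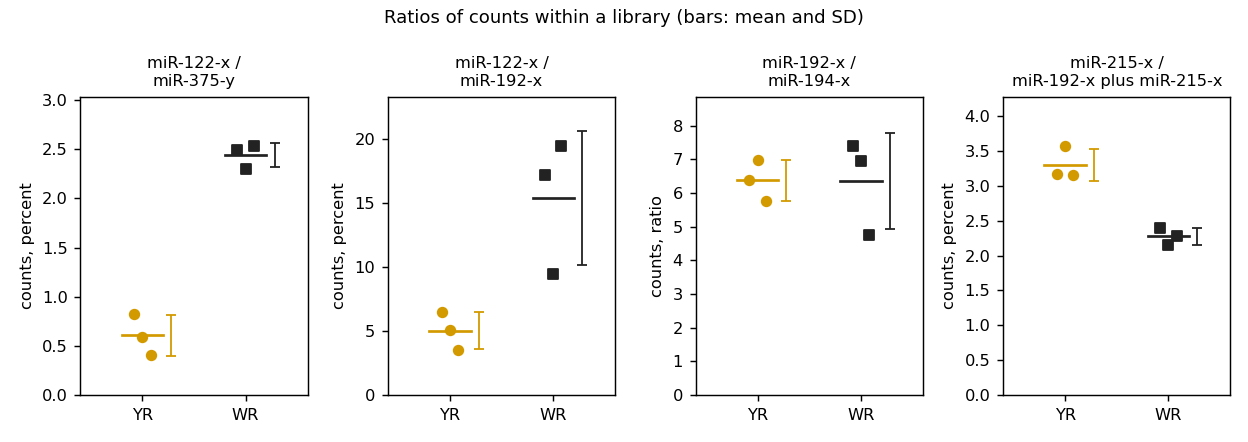
Reads of 1 entry in relation to another within each library, YR left of WR, with the mean and SD of 3 libraries beside the points. The share of miR-122-x is lower in YR in the left 2 panels, the ratio of miR-192-x to miR-194-x overlaps between groups, and the share of miR-215-x is 3.16% to 3.57% in YR and 2.16% to 2.40% in WR.

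The other arm of the miR-192 hairpin was scarce. miR-192-y had 21, 21 and 20 reads in YR and 16, 20 and 30 in WR, and miR-192-z, of nearly the same sequence, 11, 5 and 13 reads in YR and 15, 14 and 18 in WR. There were 93.0, 68.2 and 75.2 reads of miR-192-x per read of miR-192-y in YR and 155, 178 and 62.9 in WR, with overlapping groups. Neither entry passed (log2 fold changes 0.05 and -0.58; edgeR adjusted p = 0.938 and 0.382). The value of miR-192-y is far smaller than its SE of 0.357 and took either sign under other settings. Without WR replicate 1 it was -0.318 (SE 0.341; edgeR adjusted p = 0.614). miR-194-y was read 7, 2 and 3 times in YR and 4, 3 and 2 times in WR, too few to test. Predicted entries of other sequence shared the seeds of these passenger arms, 2 that of miR-192-y and 4 that of miR-194-y. Those with the seed of miR-194-y, listed as 2 sequences, had a mean of 4.43 and 4.56 TPM, above miR-194-y at 0.389 TPM. Those with the seed of miR-192-y, listed 2 times with 1 sequence, had 50 reads in YR and 22 in WR.

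miR-375-y, the islet and enteroendocrine miRNA and the most abundant of the group, had 15384, 12284 and 13094 reads in YR and 17120, 14672 and 14473 in WR. In TPM this is 1580, 1559 and 1317 in YR against 2082, 1682 and 1637 in WR. The groups did not overlap in TPM. After TMM scaling they did, at 1473, 1632 and 1507 TMM-scaled CPM in YR and 1657, 1481 and 1592 in WR, and the log2 fold change was -0.04 (SE 0.103; edgeR adjusted p = 0.833). Its 5p arm, miR-375-x, had 37, 28 and 42 reads in YR and 30, 46 and 47 in WR (log2 fold change -0.07, SE 0.306; edgeR adjusted p = 0.900), a sign that turned without YR replicate 1 or WR replicate 3. Without WR replicate 1 the log2 fold change of miR-375-x was -0.431 (SE 0.269; edgeR adjusted p = 0.338). Each read of miR-375-x stood beside 416, 439 and 312 of miR-375-y in YR and 571, 319 and 308 in WR. The longer miR-375-z was read 6, 5 and 6 times in YR and 3, 8 and 4 times in WR.

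Among the 9 tested entries, 5 did not overlap in TPM and were lower in YR (miR-122-x, miR-192-x, miR-194-x, miR-375-y and miR-192-z), against 28.3% of all tested entries in either direction, 19.7% lower and 8.63% higher. After TMM scaling 3 of the 9 were so (miR-122-x, miR-192-x and miR-194-x), against 28.8% of all in either direction and 11.2% lower. Among the 5 in TPM, miR-192-z had few reads, and its 95% Poisson intervals overlapped between groups. They were 0.696 to 2.24 TPM in YR replicate 3 and 0.878 to 2.69 TPM in WR replicate 2. For miR-192-x the intervals of YR replicate 1 (192 to 210 TPM) and WR replicate 3 (204 to 223 TPM) overlapped too. The median log2 fold change of the 9 was -0.07, against -0.03 over all, and 6 of 9 were negative, against 51.2% of all. TPM and TMM scale the libraries differently. The TMM factors were 1.194, 1.083 and 0.9875 in WR replicates 1, 2 and 3. In YR replicates 1, 2 and 3 they were 1.02, 0.9131 and 0.8407. With library totals alone the median log2 fold change of all entries lay at -0.26. Which scaling is nearer the true levels was not tested.

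miRNAs of the neighbouring organs were read in this skin too. miR-216-x and miR-217-x, of exocrine pancreas, had 313, 184 and 231 and 77, 39 and 63 reads in YR, against 214, 172 and 122 and 45, 26 and 29 in WR. Their log2 fold changes were 0.65 (SE 0.229) and 0.96 (SE 0.295), of the other sign to miR-122-x. In TPM the groups overlapped for both. After TMM scaling both were higher in every YR library than in every WR library. Of all tested entries 28.8% did not overlap on that scale, with 11.2% lower in YR and the rest of the 28.8% higher, like these 2. The edgeR adjusted p were 0.188 and 0.132 (2 with unadjusted p below 0.05), and DESeq2 and limma called 0 of the 2. miR-143-y, of smooth muscle, stood at 9017 ± 1972 TPM in YR and 11543 ± 8096 TPM in WR, and miR-145-y at 634 ± 127 TPM in YR and 847 ± 129 TPM in WR (SD, n = 3 each). Of the 4 tested entries of this list 0 passed in edgeR (0 with unadjusted p below 0.05), DESeq2 or limma (median log2 fold change -0.08). Without WR replicate 1, which alone held 20738 TPM of miR-143-y, this median was 0.01 and the log2 fold change of miR-143-y was 0.40, against -0.07 with all 6 libraries. Among skin epithelium entries, miR-205-x stood at 34812 ± 4642 TPM in YR and 36243 ± 5776 TPM in WR, and miR-200-y at 22989 ± 1202 TPM in YR and 29918 ± 2995 TPM in WR. Skeletal muscle, which lies under the skin, gave 11 tested entries with a median log2 fold change of 0.18 (0.03 without WR replicate 1) and a summed level of 13590 to 25384 TPM in YR and 17975 to 22811 TPM in WR. miR-206-y stood there at 10815 ± 3339 TPM in YR and 10832 ± 1837 TPM in WR, and miR-1-z at 4995 ± 1595 TPM in YR and 5076 ± 576 TPM in WR (SD, n = 3 each). Of the 11, 0 passed in edgeR (1 with unadjusted p below 0.05), DESeq2 or limma.

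Likeness of pattern was measured over the 6 libraries as the mean absolute difference of log2 TMM-scaled CPM, each entry centred on its own mean, among entries with a mean of at least 10 TPM. For miR-122-x the nearest of 330 was miR-11213-x, at 0.226, with the sequence tATGAACCttgcactggaaga and another seed, while the median entry lay at 1.15. miR-11213-x had 83, 78 and 48 reads in YR, against 319, 336 and 276 in WR (log2 fold change -2.00, edgeR adjusted p = 0.0201). It was picked by likeness to miR-122-x in these same libraries, so its similar fold change gives no further support. Next came miR-1260-z at 0.557, with 1637, 1433 and 1048 reads in YR and 7293, 3292 and 1892 in WR, and a predicted entry, gCACCCTAttccttatgtagact, at 0.624. miR-194-x and miR-192-x stood at ranks 20 and 21 of likeness to miR-122-x, at 0.769 and 0.780. For miR-192-x the nearest entry was miR-194-x, at 0.179, followed by miR-146-y at 0.198 (median entry 0.448). For miR-194-x it was miR-429-y, of the miR-200 family of epithelia, at 0.102, followed by miR-203-y, of keratinocytes, at 0.107, and miR-192-x came at rank 17 with 0.179 (median entry 0.440). These distances describe 6 libraries and were not tested.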

How the data were processed

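Per the labels' protocols, Trizol RNA of dorsal skin received adapters at both ends and went through RT-PCR before Illumina HiSeq Xten sequencing. For the aligner, miRNA database and counting rule, the sources used here give nothing. The deposited table gives whole-number counts per mature miRNA and library, and the authors' TPM score, which from its values is the count times a constant of each library, with a count of 0 written as a small number and set to 0 here. It also gives the authors' log2 fold change, p-value and adjusted p-value.

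Counts were tested with edgeR 4.0.16 (R 4.3.3): YR over WR in the quasi-likelihood test without a replicate block, libraries scaled by TMM, p-values adjusted by Benjamini-Hochberg over the 834 entries with a mean of at least 1 TPM, threshold 0.05. SE is the size of the log2 fold change divided by the square root of F. DESeq2 1.42.0 and limma 3.58.1 (log2(TPM + 1)) were alternatives. Likeness used a prior count of 2. The edgeR step was tested on simulated data. Replicates of a group differed by more than sampling noise (chi-square per degree of freedom 65.2 to 527). Named were all member entries, the 2 most abundant of each list, entries sharing a seed, and the nearest in pattern. miR-885-x and miR-127-y were added after their values were seen. So were miR-200-x, miR-200-z, miR-203-x, miR-144-x and miR-223-x, named because their groups did not overlap in TPM. miR-802, on the liver list, had no entry in the deposited table. Members and lists were chosen with earlier results of these data known. Positions in the genome were not analysed here.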

Additional observations from a re-analysis of the deposited data

How the results depend on the processing

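miR-122-x, miR-192-x and miR-194-x kept a negative log2 fold change in all 17 alternatives each. miR-122-x kept its call in 10: with median-of-ratios scaling, library totals alone, no filter, a mean of at least 10 TPM, DESeq2, both limma settings, 1 entry per distinct sequence, the summed miR-192 seed, and without WR replicate 1. It lost it with a replicate block (-2.095, edgeR adjusted p = 0.0839) and with known names alone (-2.090), and without single libraries it ran from -2.286 to -1.822. miR-194-x without single libraries ran from -0.874 to -0.526. The count of members past the threshold was 0 with the replicate block (edgeR, 2 at an unadjusted p under 0.05) and 0 with known names alone (1 at an unadjusted p under 0.05), and 0 to 2 without single libraries; DESeq2 and limma gave 1.

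Over all entries the count of 44 became 16 where the mean had to reach 10 TPM, 76 with DESeq2, 21 with 1 entry per distinct sequence, 2 with the replicate block, 0 with known names alone (edgeR, 52 at an unadjusted p under 0.05), and 1 to 118 without single libraries. Whether the replicate numbers pair the libraries cannot be settled with 3 libraries per group. Same-numbered libraries deviated from their group means with correlations of 0.26, -0.104 and 0.27. Libraries of different number gave -0.378 to 0.143, and not every library correlated best with its own number.

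Values near 0 changed sign. miR-215-x was -0.055 with median-of-ratios scaling, -0.232 with library totals, -0.044 unfiltered, -0.058 with DESeq2, -0.181 and -0.203 with limma (pseudocounts 1 and 0.1), -0.125 with distinct sequences, -0.030 with known names, and -0.180 to 0.096 without single libraries. In the same order miR-192-y was -0.025, -0.162, -0.00033, -0.025, -0.097, -0.125, -0.092 and -0.009, and -0.318 to 0.402 without single libraries, where miR-375-x ran from -0.431 to 0.095. Known names alone and the summed seed were added after seeing the data. The cause of these changes was not tested. Entries with few reads, such as miR-194-y, are limited by depth.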
